A study of Mus musculus with 48 samples.

Results

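The genotype comparison within offspring of control-diet sires set the liver transcripts of ATF7+/- mice against those of wild-type mice. ATF7, a relative of ATF2 that responds to stress signals, binds DNA at target promoters, and the study crossed its genotype with the diet of the father. All 16 arrays labelled wild-type or ATF7+/- from sires on the control diet were used, of 48 arrays in the series, and all 13542 genes that passed a filter on low values were tested. The wild-type replicates 4 and 5 differed from each other far less than other arrays of a group did and were averaged into 1 sample, called replicate 4-5, which left 7 wild-type and 8 ATF7+/- samples, 15 of 46 in the series. Each sample was the median lobe of the liver of a male or female F1 mouse aged 3 weeks, and no sex is given per animal. The sires of both groups had eaten the control diet from 3 to 12 weeks of age. The labels do not say whether the animals shared litters or sires, nor how the further group labelled ATF7+/+ differed from wild-type. Although the series calls its arrays independent experiments, separate litters are not stated, so a p-value here speaks only to the spread between samples. That spread was estimated over all 6 groups of the series, 46 samples, and not over the 15 alone.

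Hepatocytes make cholesterol from acetyl-CoA through the mevalonate pathway, whose enzymes are encoded by genes that the transcription factor SREBP2 switches on when sterols in the endoplasmic reticulum run low. SCAP carries the inactive SREBP precursor to the Golgi for cleavage, and the INSIG proteins hold it back when sterols are plentiful. The related factor SREBP1c drives fatty acid synthesis in the fed state, together with the glucose-responsive factor ChREBP (Mlxipl).

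Promoters of cholesterol synthesis genes that rose in ATF7+/- liver are shown first, because these genes moved together in the comparison. The sequences are the 250 bases before the annotated start of the gene, read on the gene's strand, from RefSeq on GRCm38.p6; the build behind the array annotation is not given in the sources used here. Capitals mark matches, on either strand, to CCAAT (or ATTGG) and, in Hmgcs1, also to TCACNCCAC, a motif of the sterol regulatory element type.
Hmgcs1, chr13:119690101-119690350, plus strand: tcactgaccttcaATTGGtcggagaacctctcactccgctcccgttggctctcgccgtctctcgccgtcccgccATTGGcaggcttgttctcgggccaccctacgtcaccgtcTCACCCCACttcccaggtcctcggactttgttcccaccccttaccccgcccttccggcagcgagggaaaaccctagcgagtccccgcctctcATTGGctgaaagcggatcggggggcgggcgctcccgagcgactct
Msmo1, chr8:64733579-64733828, minus strand: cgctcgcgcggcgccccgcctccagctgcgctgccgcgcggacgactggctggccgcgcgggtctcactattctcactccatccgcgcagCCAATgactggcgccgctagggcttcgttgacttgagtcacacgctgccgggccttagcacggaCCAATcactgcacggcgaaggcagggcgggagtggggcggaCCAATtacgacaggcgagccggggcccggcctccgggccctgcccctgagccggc
Idi1, chr13:8885356-8885605, plus strand: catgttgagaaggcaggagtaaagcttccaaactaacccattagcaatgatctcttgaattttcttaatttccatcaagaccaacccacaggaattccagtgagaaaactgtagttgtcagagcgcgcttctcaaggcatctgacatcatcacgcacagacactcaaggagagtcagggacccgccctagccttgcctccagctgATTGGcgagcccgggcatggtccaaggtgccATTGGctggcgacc
Nsdhl, chrX:72918271-72918520, plus strand: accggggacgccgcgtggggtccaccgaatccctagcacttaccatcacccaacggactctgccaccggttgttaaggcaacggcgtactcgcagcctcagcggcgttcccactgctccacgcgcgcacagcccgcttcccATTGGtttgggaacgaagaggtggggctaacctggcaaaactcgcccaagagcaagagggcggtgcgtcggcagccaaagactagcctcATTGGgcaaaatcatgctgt
Cyp51, chr5:4104698-4104947, minus strand: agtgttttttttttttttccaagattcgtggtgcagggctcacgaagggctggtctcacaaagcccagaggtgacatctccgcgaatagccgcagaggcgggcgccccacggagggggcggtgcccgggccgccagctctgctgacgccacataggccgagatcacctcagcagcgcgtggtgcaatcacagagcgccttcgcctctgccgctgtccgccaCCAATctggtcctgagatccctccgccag
The table of promoters had entries for 14 of the 18 list members that rose, with 17 windows. CCAAT stood in 14 of the 17 windows, at least 1 for each of the 14 genes, and in 33.8% of all 32851 windows of this length. Hmgcs1 was the 1 gene of the 14 with TCACNCCAC (1.05% of all windows), which began 137 bases before the start. The E-box CACGTG stood in a window of Dhcr7, Hsd17b7 and Sc5d (6.02% of all windows). The cAMP response element TGACGTCA, the sequence bound by ATF2-family factors, was in 0 of the 17 windows (1.55% of all windows). Where both CCAAT and TCACNCCAC stand, in Hmgcs1, the matches do not overlap. A match is a description of these letters only.

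The log2 values lay between 1.21 and 14.23, with array medians from 5.89 to 6.12; the number of arrays limits the precision. The values parted all 48 arrays into a set A of 18 and a set B of 30 that no label mentions, with 3 arrays of each group in the former and 5 in the latter. Hepatocyte markers were high in both groups: Alb lay between 13.47 and 13.62 in wild-type and between 13.39 and 13.67 in ATF7+/- samples. The 3 Y-linked genes were high in 5 of the 7 wild-type and 5 of the 8 ATF7+/- samples.

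Atf7 itself was read by a pair of probe sets. The first, with the higher signal, had a lowest, median and highest log2 value of 8.72, 8.90 and 9.15 in wild-type and of 8.46, 8.61 and 8.86 in ATF7+/- liver. The groups overlapped, and the log2 difference of -0.26 ± 0.08 (SE) did not pass the threshold (limma, adjusted p = 0.0956). The second probe set read 8.32, 8.62 and 8.70 in wild-type against 7.19 and 7.79 (lowest and median) in ATF7+/- liver. All 8 ATF7+/- samples lay below all wild-type samples there, at 54.6% of the wild-type level (log2 difference -0.87 ± 0.13, adjusted p = 2.98e-05 when added to the genes tested). It was -1.10 within set A and -0.73 within set B. Where the probe sets lie relative to the altered part of the gene is not given in the sources used here.

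None of the other 16 measured members of the list of ATF7 relatives and histone H3 lysine 9 methylation partners passed the test. Atf2, the closest measured relative, differed by -0.03 ± 0.09. Atf7ip, which partners the H3K9 methyltransferase Setdb1, differed by 0.09 ± 0.06, Setdb1 itself by 0.00 ± 0.10 and Ehmt2, the G9a methyltransferase, by -0.11 ± 0.06. The median of the list was -0.04, against -0.01 over all genes tested.

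Across the 13542 genes, 224 differed between ATF7+/- and wild-type liver at an adjusted p of 0.05 (1.65%). Of these, 158 were higher in ATF7+/- liver (1.17%) and 66 were lower (0.487%). The number with an unadjusted p under 0.05 was 1727. Without wild-type replicate 8 the adjusted count was 121 and without ATF7+/- replicate 4 it was 149. It was 69 when only these groups entered the fit. With each array centred on its median, 134 were higher and 23 lower, so that the share of higher calls went from 70.5% to 85.4%. The rises were larger than the falls: their median log2 difference was 0.53, up to 2.49, and that of the falls was -0.33, down to -0.90. Every ATF7+/- sample lay above every wild-type sample for 36 genes (0.266% of those tested) and below every wild-type sample for 11 (0.0812%).

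Of the gene lists examined, the mevalonate and sterol pathway had the largest share of members past the threshold. Of the 24 genes on the list of cholesterol synthesis and uptake, 19 could be tested. In ATF7+/- liver 18 rose, against 1.17% of all genes, and 0 fell, with a median log2 difference of 1.31 over the 19, against -0.01 over all genes. In 9 of the 19 all ATF7+/- samples lay above all wild-type samples, against 0.266% of all genes. The mean of the list per sample, relative to the mean over all samples, was -1.47, -1.04 and -0.15 (lowest, median, highest) in wild-type and 0.06, 0.41 and 0.65 in ATF7+/- liver. The groups did not overlap. Wild-type replicate 8 was the lowest, and the averaged wild-type replicates 4 and 5 were the highest of the wild-type group.

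**Figure D1:**
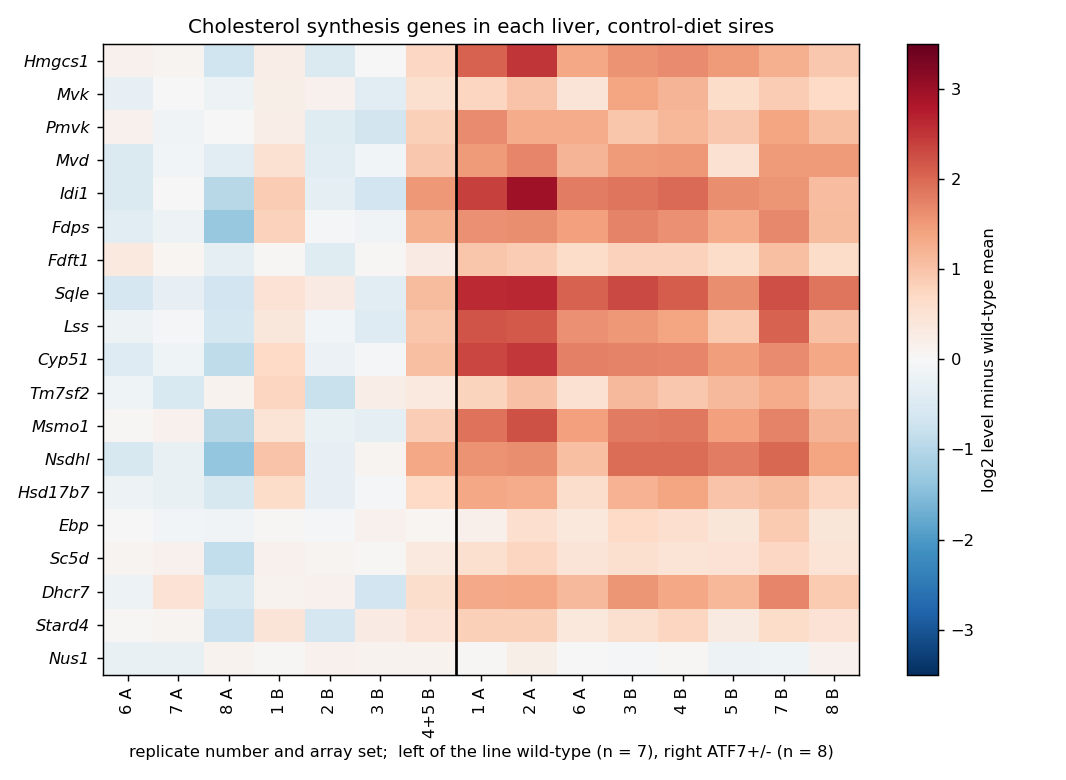
Log2 level of the 19 tested genes of cholesterol synthesis and uptake (rows) in each liver sample of control-diet sires (columns), minus the mean of the 7 wild-type samples; red is higher and blue lower. Columns give the replicate number and array set, with wild-type left of the line and the 8 ATF7+/- samples right of it. In 18 rows the ATF7+/- side is red, and Nus1, the bottom row, is close to 0 throughout.

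The early steps build the isoprenoid units. Hmgcs1, the HMG-CoA synthase whose promoter is shown above, read 8.88, 9.67 and 10.29 in wild-type against 10.51, 11.11 and 12.08 in ATF7+/- liver, and it rose 3.03-fold (log2 1.60 ± 0.22, adjusted p = 9.58e-06). The groups did not overlap. Of the 3 enzymes that turn mevalonate into isopentenyl diphosphate, Mvk rose by 0.88 ± 0.15, Pmvk by 1.22 ± 0.16 and Mvd by 1.36 ± 0.24. Idi1, which isomerises isopentenyl diphosphate, read 7.40, 8.05 and 9.88 in wild-type and 9.44, 10.20 and 11.33 in ATF7+/- liver (log2 difference 1.91 ± 0.32, adjusted p = 0.000179). Of the 8 ATF7+/- samples, 7 lay above the highest wild-type sample. Fdps, the farnesyl diphosphate synthase, rose 2.85-fold (1.51 ± 0.22).

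The committed sterol steps followed the same direction. Squalene synthase (Fdft1) read 9.90, 10.36 and 10.65 in wild-type and 10.96, 11.12 and 11.36 in ATF7+/- liver, with a rise of 0.81 ± 0.12 (adjusted p = 4.07e-05). Sqle, the squalene epoxidase, had the widest shift of the list, from 6.88, 7.25 and 8.64 to 9.18, 9.73 and 10.19, or 4.57-fold (log2 2.19 ± 0.26, adjusted p = 8.05e-07). In both genes the lowest ATF7+/- sample stood above the highest wild-type one. Lss, the lanosterol synthase, rose 3.05-fold (1.61 ± 0.24), with 7 of 8 ATF7+/- samples above all wild-type samples.

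From lanosterol to cholesterol, 8 enzymes of the list were tested and all 8 rose. Cyp51, the lanosterol demethylase, read 7.15, 7.91 and 9.10 in wild-type against 9.40, 9.77 and 10.53 in ATF7+/- liver (3.51-fold, log2 1.81 ± 0.27, adjusted p = 3.42e-05). Msmo1, the sterol C4-methyl oxidase, went from 7.93, 8.96 and 9.77 to 10.10, 10.70 and 11.14 (3.26-fold, adjusted p = 3.77e-06). Neither gene overlapped between the groups. Nsdhl, which acts with Msmo1 in removing the C4 methyl groups, rose 3.19-fold, and Hsd17b7, the keto reductase of the same complex, 2.14-fold. The reductase Tm7sf2 rose by 0.97 ± 0.20, the isomerase Ebp by 0.53 ± 0.09 and the desaturase Sc5d by 0.57 ± 0.10. Dhcr7, the final reductase of one branch, lay between 7.99 and 9.27 in wild-type and between 9.59 and 10.36 in ATF7+/- liver and rose 2.49-fold with a narrow error (1.31 ± 0.16, adjusted p = 1.37e-06). Stard4, a cytosolic sterol carrier, rose by 0.60 ± 0.14 (adjusted p = 0.0127) and was lost, that is no longer passed, without wild-type replicate 8. Nus1, a subunit of the enzyme that makes dolichol from the same isoprenoids, was the 1 tested member that did not pass (0.01 ± 0.11, adjusted p = 0.993).

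**Figure D2:**
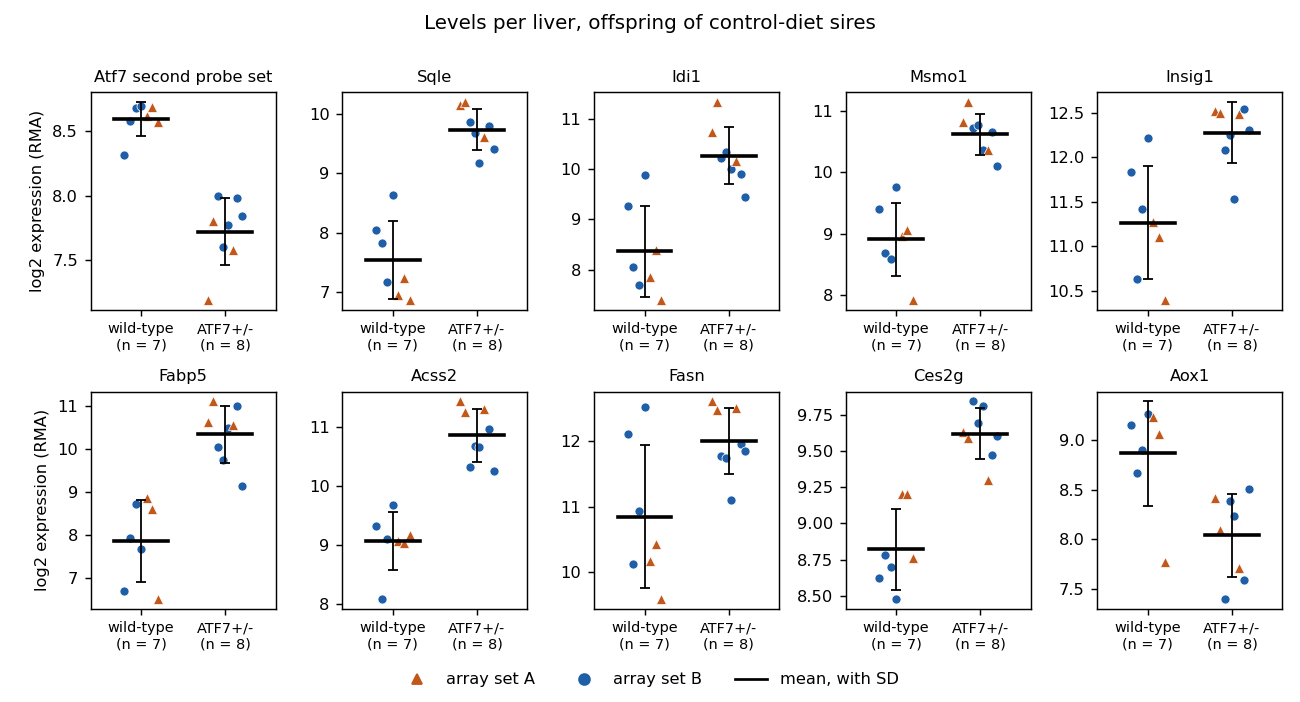
Log2 expression (vertical axes) of 10 genes in each of 7 wild-type and 8 ATF7+/- livers of control-diet sires; triangles are array set A and circles array set B, and black lines are the group mean with its SD. The groups do not overlap in Sqle, Msmo1, Fabp5, Acss2 and Ces2g or on the second probe set of Atf7, and they overlap in Idi1, Insig1, Fasn and Aox1.

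Within both array sets the 18 genes that rose had positive differences, from the same samples that chose them, and Nus1 differed by 0.22 within set A and -0.14 within set B. The list median was 1.42 within set A and 1.05 within set B. Within set A the list mean per sample was -1.47 to -0.95 in the 3 wild-type samples and 0.14 to 0.65 in the 3 ATF7+/- samples. The 4 wild-type samples of set B lay between -1.09 and -0.15 and the 5 ATF7+/- samples between 0.06 and 0.44. The number of members that rose was 17 in set B alone (2.1% of all genes), 17 without wild-type replicate 8 (0.657%) and 18 without any other single sample. It was 16 when only these groups entered the fit (0.45%) and 12 with the replicate number as a block (0.266%).

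The genes that govern the pathway changed less widely. Of 13 measured SREBP regulators and sterol transporters, 3 rose, against 1.17% of all genes, and 0 fell, with a median of 0.05. Srebf2, which encodes SREBP2, read 8.07, 8.23 and 8.68 in wild-type and 8.53, 8.71 and 8.99 in ATF7+/- liver (1.33-fold, log2 0.41 ± 0.09, adjusted p = 0.0129). Scap went from 9.31, 9.64 and 9.90 to 9.90, 10.06 and 10.34 (1.39-fold, adjusted p = 0.0112). Insig1, itself a transcriptional target of SREBP, read 10.40, 11.27 and 12.21 in wild-type and 11.53, 12.39 and 12.54 in ATF7+/- liver (2.01-fold, adjusted p = 0.00832). These 3 genes overlapped between the groups, with 4, 7 and 6 of the 8 ATF7+/- samples above all wild-type samples. With only these groups in the fit, Srebf2 and Insig1 did not pass (highest adjusted p over all alternatives 0.211 and 0.194). The Insig1 difference was 1.57 within set A and 0.62 within set B.

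Srebf1, the gene of SREBP1, did not differ beyond its spread (0.02 ± 0.21, adjusted p = 0.988), and its 95% interval was -0.41 to 0.44. It was 0.49 within set A and -0.33 within set B. The other members that did not pass included Insig2 (0.31 ± 0.20), the liver X receptor Nr1h3 (0.08 ± 0.14), the SREBP protease Mbtps1 (0.05 ± 0.09) and Mylip, the ligase that degrades the LDL receptor (-0.20 ± 0.09). The sterol exporters Abca1, Abcg1, Abcg5 and Abcg8 lay between -0.23 and 0.03.

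Fatty acid and triglyceride synthesis rose in part. Of 23 measured members 8 rose, against 1.17% of all genes, and 0 fell, with a median of 0.46. That count was 14 with array set as a block (3.37% of all genes rose in that fit), 4 with only these groups fitted (0.45%) and 2 with the replicate number as a block (0.266%). Acss2, which makes cytosolic acetyl-CoA from acetate, read 8.09, 9.11 and 9.68 in wild-type and 10.26, 10.82 and 11.43 in ATF7+/- liver (3.46-fold, log2 1.79 ± 0.24, adjusted p = 5.59e-06). Acacb, the mitochondrial acetyl-CoA carboxylase, went from 6.83, 7.99 and 8.27 to 8.95, 9.55 and 10.13 (3.47-fold, adjusted p = 2.51e-05). Elovl5, which elongates polyunsaturated fatty acids, read 10.95, 11.60 and 11.94 against 11.97, 12.30 and 12.45 (1.73-fold, adjusted p = 0.00022). In these 3 genes the groups did not overlap.

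The other 5 that rose overlapped between the groups. Acly, the citrate lyase, rose 2.53-fold (adjusted p = 0.0096), Elovl6 2.11-fold (0.035) and Fasn, the fatty acid synthase, 2.22-fold (0.0428). The desaturases Fads1 and Scd1 rose 1.38-fold and 1.28-fold. Fasn read 9.60, 10.44 and 12.52 in wild-type and 11.10, 11.90 and 12.60 in ATF7+/- liver, so that 1 of 8 ATF7+/- samples exceeded the highest wild-type sample. Acaca (0.71 ± 0.27), Pnpla3 (1.38 ± 0.40) and Thrsp (1.40 ± 0.44) did not pass, with adjusted p of 0.194, 0.0578 and 0.0875; the last of these passed without wild-type replicate 4-5 or ATF7+/- replicate 5, as did Pnpla3. Fasn was lost without wild-type replicate 2, 6, 7 or 8 or ATF7+/- replicate 1, 2, 3, 4, 6 or 7. Elovl6 was lost without wild-type replicate 2, 6, 7 or 8 or ATF7+/- replicate 1, 2, 4 or 8, and Fads1 without wild-type replicate 8.

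The lipogenic genes had larger differences in array set A, and that gap itself was not tested. The list median was 1.01 there and 0.23 within set B. Fasn differed by 2.45 and 0.26, Acly by 2.28 and 0.73, and Elovl6 by 1.95 and 0.47. Fitted on set A by itself, 14 of the 23 members rose, where 3.24% of all genes did. On set B 4 rose, against 2.1% of all genes, and without wild-type replicate 8 it was 5, against 0.657%. The wild-type samples of set A also stood above those of set B in the circadian clock list. The mean of the clock list was 0.20 to 0.49 in the 3 wild-type samples of set A and -0.04 to 0.14 in its 3 ATF7+/- samples. For set B these ranges were -0.05 to 0.04 and -0.38 to 0.13. The part of clock phase in these results was not tested.

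Clock genes gave 0 of 15 calls in the comparison (median -0.07) and their output genes 0 of 11 (median -0.33). Fitted on set A by itself, 4 clock genes and 8 output genes fell and 1 of each rose in ATF7+/- liver, where 3.39% of all genes fell and 3.24% rose. On set B 0 of either list passed, where 1.2% of all genes fell and 2.1% rose. Ciart, a repressor of the clock, read between 8.60 and 9.91 in the 3 wild-type samples of set A and between 6.73 and 7.16 in the other 4. Arntl, the clock activator BMAL1, ran the other way, from 5.41 to 6.12 in the former and from 6.47 to 7.51 in the latter. The ATF7+/- samples spanned 5.85 to 8.55 for Ciart and 6.07 to 7.63 for Arntl.

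**Figure D3:**
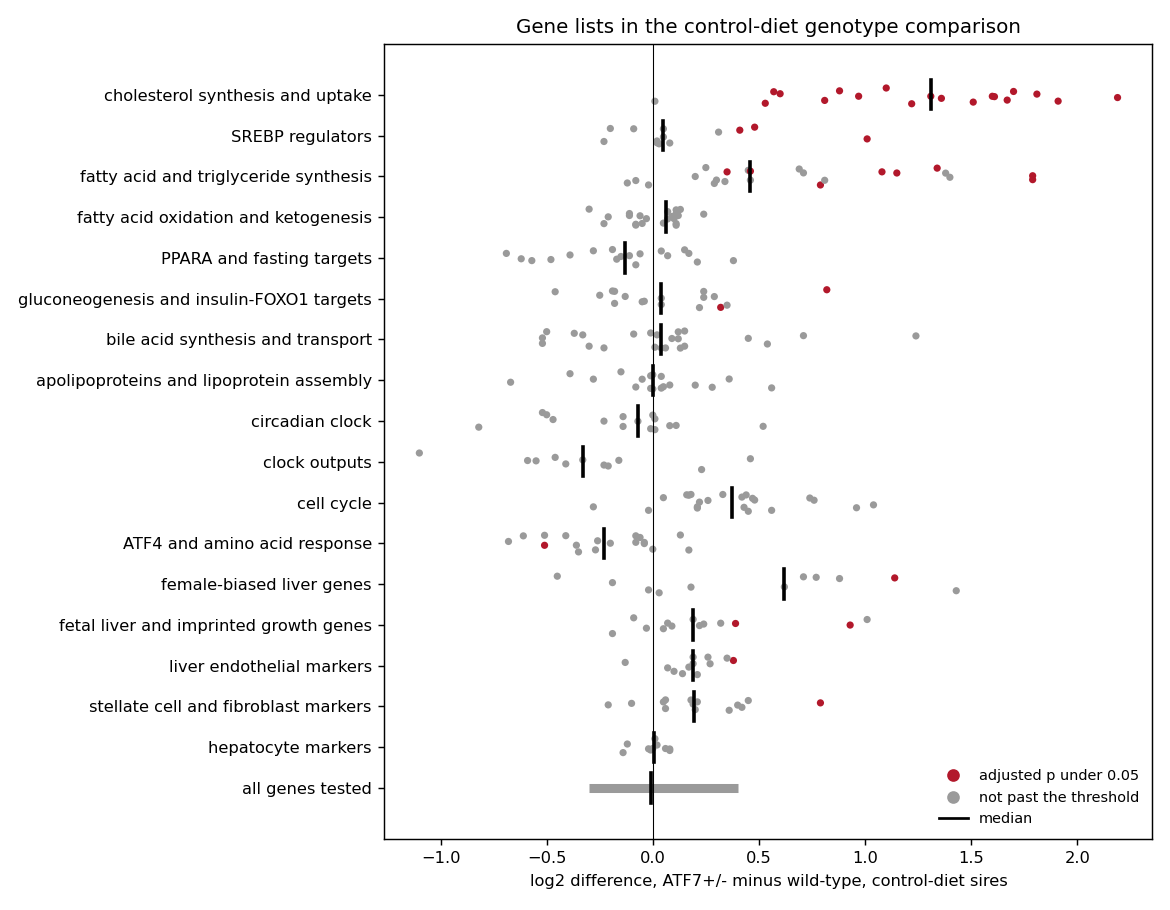
Log2 difference between ATF7+/- and wild-type liver of control-diet sires (horizontal axis) for each tested member of 17 gene lists; red points passed at an adjusted p of 0.05, grey points did not, and black bars are list medians. The grey bar at the bottom spans the middle 95% of all 13542 genes. The medians are 1.31 for cholesterol synthesis and 0.46 for fatty acid synthesis, and -0.01 for all genes.

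Other pathways of hepatic metabolism showed few calls. None of 22 genes of fatty acid oxidation and ketogenesis passed (median 0.06), nor any of 18 PPARA and fasting targets (median -0.13), 23 bile acid genes (0.04), 18 apolipoprotein and lipoprotein assembly genes (0.00), 18 iron genes (-0.14) or 33 oxidative phosphorylation subunits (0.12). Among 17 genes of gluconeogenesis and insulin-FOXO1 control 2 rose, against 1.17% of all genes, and neither makes glucose. Pklr, the glycolytic pyruvate kinase, rose 1.77-fold (adjusted p = 0.027), and Sesn1, a stress-induced regulator of mTORC1, 1.25-fold (adjusted p = 0.00957). Pklr differed by 1.54 within set A and 0.32 within set B, and was lost without wild-type replicate 2, 7 or 8 or ATF7+/- replicate 1, 2 or 3. In the list of 18 ATF4 and amino acid response genes 1 fell, against 0.487% of all genes, and 16 had a lower mean. Over all 13542 genes, 6514 had a higher mean. The gene that fell was Ddit3, the stress factor CHOP, to 70.0% of wild-type (adjusted p = 0.0352). Ddit3 was lost without wild-type replicate 2, 6 or 8 or ATF7+/- replicate 3, 4, 5 or 8. It differed by -0.37 within set A and -0.60 within set B, and passed in neither.

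Outside these lists, the largest rises included Fabp5, Chrna4, Rdh11 and Aqp8. Fabp5, a fatty acid binding protein, read 6.51, 7.92 and 8.87 in wild-type and 9.15, 10.53 and 11.11 in ATF7+/- liver, the largest difference of all called genes (5.60-fold, log2 2.49 ± 0.31, adjusted p = 1.51e-06). Chrna4, a nicotinic receptor subunit, read 5.97, 6.46 and 6.87 in wild-type and 7.49, 8.73 and 10.41 in ATF7+/- liver (5.10-fold, adjusted p = 0.00547). Its ATF7+/- samples parted into 4 between 9.74 and 10.41, among them the 3 of set A, and 4 between 7.49 and 7.73. Rdh11, a retinol dehydrogenase, went from 6.81, 7.98 and 8.72 to 9.11, 9.45 and 9.97 (3.17-fold, adjusted p = 8.05e-07). The water channel Aqp8 went from 7.64, 9.38 and 9.67 to 10.48, 10.57 and 11.10 (3.09-fold). In these 4 genes all ATF7+/- samples stood above all wild-type samples.

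Akr1c18, a hydroxysteroid dehydrogenase of a multigene family whose copies can share probes, rose 4.01-fold with a wide error (SE 0.52 on the log2 scale, adjusted p = 0.0323). It overlapped between the groups, with 3 of 8 ATF7+/- samples above all wild-type samples, and was lost without wild-type replicate 3, 6, 7 or 8 or ATF7+/- replicate 2, 3, 4 or 5. The smallest p of the comparison belonged to Rps23rg1, a retrogene copy of the ribosomal protein gene Rps23, whose signal cannot be told apart from that of near-identical copies. It read 6.37, 6.66 and 7.02 in wild-type and 7.55, 7.87 and 8.16 in ATF7+/- liver (2.38-fold, adjusted p = 1.69e-07). Its difference was 1.13 within set A and 1.34 within set B.

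A few further rises, named after their values were seen, had the larger difference in set B. Slc23a1, a vitamin C transporter, read 9.16, 9.33 and 9.88 in wild-type and 10.13, 10.33 and 10.57 in ATF7+/- liver (1.86-fold, adjusted p = 1.46e-05), with differences of 0.53 within set A and 1.16 within set B. The carboxylesterases Ces2g and Ces2e, which are close paralogs, rose 1.74-fold and 1.81-fold (adjusted p = 8.11e-06 and 3.42e-05). Ces2g differed by 0.45 within set A and 1.04 within set B, and Ces2e by 0.72 and 0.98.

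Of the genes that fell, 5 of the 66 passed in both array sets alone and 6 did not overlap between the groups. For the 158 that rose these counts were 58 and 33. Both pairs of counts come from the same samples that picked the genes. Over all genes, every ATF7+/- sample lay above every wild-type sample for 0.266% and below for 0.0812%. The largest fall was that of Lilr4b, a receptor of myeloid cells with close paralogs, from 5.50, 6.05 and 7.66 to 4.91, 5.30 and 5.92 (53.5% of wild-type, adjusted p = 0.0236). Its lowest and median ATF7+/- values lay below the filter value of 5.46 and may be near background. Etnppl, which breaks down phosphoethanolamine, read 9.52, 9.86 and 10.63 in wild-type and 8.37, 9.20 and 9.70 in ATF7+/- liver (54.8%, adjusted p = 0.0368). Aox1, an aldehyde oxidase of drug metabolism, went from 7.77, 9.06 and 9.26 to 7.40, 8.16 and 8.51 (56.5%, adjusted p = 0.0352). These 3 genes overlapped between the groups. Lilr4b was lost without wild-type replicate 2 or 7. Etnppl was lost without wild-type replicate 6, 7 or 8 or ATF7+/- replicate 2, 3, 4 or 5, and Aox1 without wild-type replicate 1, 4-5, 6 or 7 or ATF7+/- replicate 2, 3, 6 or 7.

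Several falls with a smaller p were smaller in size. Slc35d1, a nucleotide sugar transporter of the endoplasmic reticulum, fell to 66.5% (adjusted p = 0.00171), with 7 of 8 ATF7+/- samples below all wild-type samples. Dmxl2, a regulator of proton pump assembly, read 7.63, 7.85 and 7.96 in wild-type and 7.12, 7.36 and 7.45 in ATF7+/- liver (72.2%, adjusted p = 0.00152), and Tatdn2 fell to 74.3% (adjusted p = 0.0023). Both parted the groups without overlap. The deubiquitinase Usp36 fell to 72.0%, the flavin monooxygenase Fmo5 to 71.1%, Zfp418, a zinc finger gene, to 72.0%, Extl1, an exostosin-like glycosyltransferase, to 71.7% and Cgref1 to 67.9%. Of these, Usp36 and Zfp418 passed without any 1 sample. Fmo5 was lost without wild-type replicate 1, 4-5 or 7 or ATF7+/- replicate 1, 2, 3 or 5, and Cgref1 without wild-type replicate 2 or 7 or ATF7+/- replicate 1, 3, 4 or 7. Extl1 passed only without wild-type replicate 3 or 4-5 or ATF7+/- replicate 2 among the fits that left out 1 sample.

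Markers of the other cell types in liver gave 3 calls, where 1.65% of all genes passed in either direction. A higher mean in ATF7+/- liver was seen for 6514 of all 13542 genes. Cdh5, the endothelial cadherin, rose 1.30-fold (adjusted p = 0.00633) from 8.79, 9.07 and 9.54 to 9.32, 9.48 and 9.69; 11 of 12 endothelial markers had a higher mean, with a median of 0.19 and list means of -0.40 to 0.27 in wild-type and -0.16 to 0.26 in ATF7+/- liver. Acta2, the smooth muscle actin of activated stellate cells and vessel walls, rose 1.73-fold (adjusted p = 0.00504); 12 of 14 stellate and fibroblast markers had a higher mean (median 0.20, list means -0.49 to 0.04 against -0.15 to 0.19). Cebpe, a granulocyte factor, fell to 80.8% (adjusted p = 0.0417), and the median of the 6 tested granulocyte markers was 0.01. It was lost without wild-type replicate 4-5, 6 or 8 or ATF7+/- replicate 1, 2, 3, 4 or 5. Lilr4b, above, was not on a marker list. In a bulk sample, fewer cells of a type and less RNA per cell cannot be told apart.

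None of 3 erythroid markers passed, with Alas2 at 0.57 ± 0.22 and Slc4a1 at 0.73 ± 0.33. Both passed without wild-type replicate 3, whose erythroid list mean of 0.81 was the highest of its group against a median of -0.32. In the ATF7+/- group, replicate 7 was the highest at 1.08, against a median of 0.02. The Kupffer, lymphocyte, cholangiocyte, and pancreas and adipose marker lists had 0 calls and medians of -0.03, 0.17, 0.08 and 0.06. The 10 hepatocyte markers had a median of 0.01. Cell cycle genes had 0 of 22 calls and a median of 0.38, with list means of -1.06 to 0.68 in wild-type and -0.38 to 0.40 in ATF7+/- liver.

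Growth, sex-biased, developmental and conjugation genes gave isolated rises. Hao2, a peroxisomal hydroxyacid oxidase that is higher in female liver, read 7.16, 8.11 and 8.70 in wild-type and 8.56, 9.19 and 9.59 in ATF7+/- liver (2.20-fold, adjusted p = 0.00306). The median of the 11 female-biased genes was 0.62 and that of the 12 male-biased genes 0.18. Of these, 1 and 0 passed, against 1.65% of all genes. The median of the 3 Y-linked genes was -0.37. Ghr, the growth hormone receptor, rose 1.23-fold (adjusted p = 0.0155), as 1 of 15 genes of the growth hormone and STAT5 list. Gstm6, a glutathione transferase with close paralogs, rose 1.59-fold (adjusted p = 0.0101) and was lost without wild-type replicate 8. It was 1 of 21 tested conjugation enzymes to rise, and the median of that list was -0.01. The imprinted genes Mest and Ndn rose 1.90-fold and 1.31-fold (adjusted p = 0.00657 and 0.0129), as 2 of 13 fetal liver and imprinted genes. Over all genes 1.17% rose. With the Y-linked level as a covariate, none of the named genes that had passed was lost.

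The same genotype comparison in offspring of low-protein sires, on 16 samples that share no array with the one above, asks whether these differences depend on the diet of the father. There 0 of 13542 genes passed (0%; smallest adjusted p = 0.772), with 377 at an unadjusted p under 0.05. The difference between the diets was itself past the threshold for 86 genes (0.635%; 77 higher and 9 lower in the control-diet comparison, and 1253 at an unadjusted p under 0.05). That count was 167 without wild-type replicate 2 and 52 without replicate 8 of the control-diet sires, and 49 without replicate 8 of either low-protein group. Of the 158 genes that rose, 61 were among them, and of the 66 that fell, 7. The test of the difference contains the control-diet values that picked these genes, so this overlap is partly fixed by the choice. Genes picked for a large difference in the control-diet comparison also tend to lie nearer 0 elsewhere. The 158 had a median of -0.09 under low-protein sires (-0.66 to 0.32), and 119 had the opposite sign. The 66 had a median of 0.01 (-0.20 to 0.26), and 38 had the opposite sign. Across all genes the differences under the 2 diets had a Pearson r of -0.27 (13542 genes, which are not independent replicates). Within the control-diet comparison, the differences of set A and of set B had an r of 0.27 over the same genes.

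**Figure D4:**
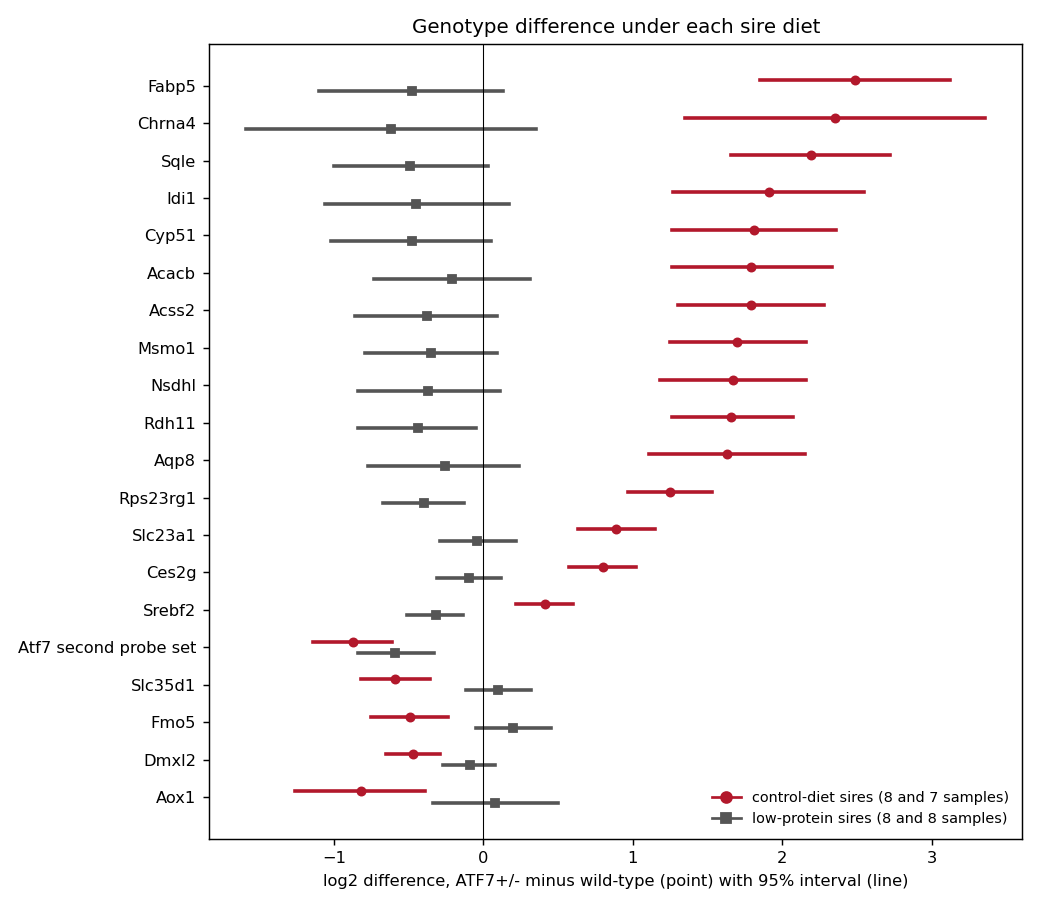
Log2 difference between ATF7+/- and wild-type liver (horizontal axis) for 20 measures, with 95% intervals from the fit; red circles are offspring of control-diet sires and grey squares of low-protein sires. Sqle stands at 2.19 and -0.49, Fabp5 at 2.49 and -0.48, and the second probe set of Atf7 at -0.87 and -0.59.

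In the sterol pathway 17 of the 19 members passed the test of the difference between diets, against 0.635% of all genes. That test contains the control-diet values as well. Sqle differed by 2.19 in the control-diet comparison and by -0.49 ± 0.25 in the low-protein one, a difference of 2.68 (adjusted p = 1.59e-05). Hmgcs1 stood at 1.60 and -0.56 (adjusted p = 3.9e-05 for the difference), and Dhcr7 at 1.31 and -0.32 (adjusted p = 2.38e-05). The list median under low-protein sires was -0.35, with 18 of 19 members below 0 and 0 past the threshold. Srebf2 (0.41 and -0.32, adjusted p = 0.00105) and Scap (0.48 and -0.14, adjusted p = 0.0356) passed this test as well. In the lipogenic list 5 of 23 did, among them Acss2 (1.79 and -0.38) and Acacb (1.79 and -0.21), and Fasn did not (1.15 and -0.27, adjusted p = 0.131). Rps23rg1 had the smallest p (1.25 and -0.40, adjusted p = 7.88e-07). The second probe set of Atf7 did not pass (-0.87 and -0.59, adjusted p = 0.696).

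The sterol genes of wild-type liver of control-diet sires had the lowest list median of the 6 groups. The list mean per sample had a median of -1.04 in that group. In the same diet group it was 0.41 in ATF7+/- liver and 0.00 in the ATF7+/+ livers (-0.56 to 0.20, n = 7). These ATF7+/+ livers lay between -0.56 and -0.19 in set A (n = 3) and between 0.00 and 0.20 in set B (n = 4). In low-protein offspring the median was 0.39 in wild-type liver, 0.07 in ATF7+/- liver and 0.14 in the ATF7+/+ group. For 18 of the 19 genes the ATF7+/+ mean of control-diet sires lay above the wild-type mean.

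**Figure D5:**
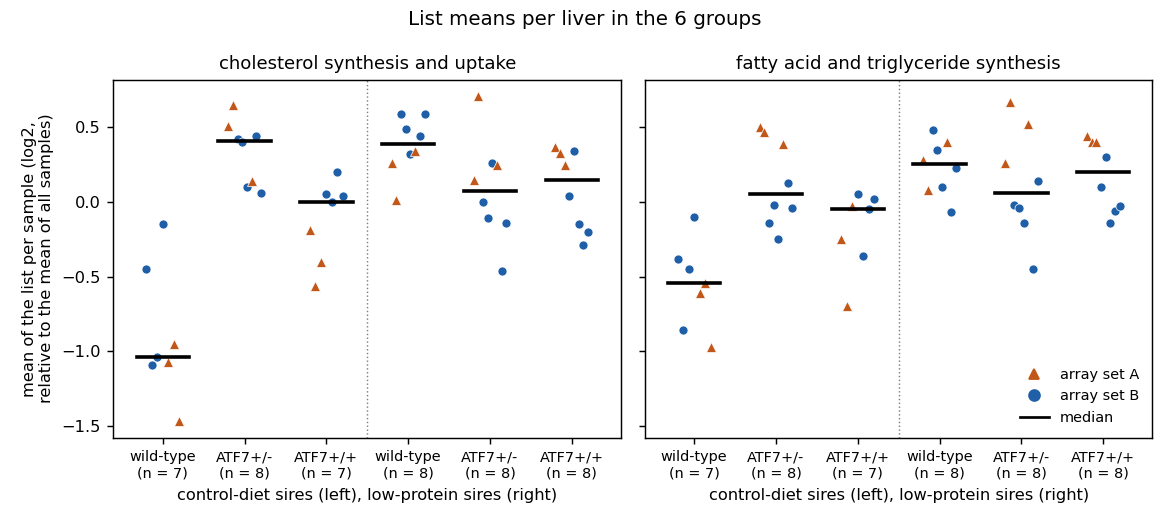
Mean of the cholesterol list (left panel) and of the fatty acid list (right panel) per liver sample, in log2 relative to the mean of all samples, for the 6 groups; triangles are array set A, circles array set B and black bars group medians. The wild-type group of control-diet sires is lowest in both panels, at medians of -1.04 and -0.54.

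Against ATF7+/+ offspring of control-diet sires, a comparison that shares its 8 ATF7+/- samples with the one above, 0 genes passed (0%; smallest adjusted p = 0.0788), with 914 at an unadjusted p under 0.05. Fitted on set A by itself 1262 passed, and on set B 2. The second probe set of Atf7, added to the genes tested, stood at 50% of the ATF7+/+ level (adjusted p = 1.83e-05). Set side by side, the difference from wild-type and from ATF7+/+ was 2.19 and 0.87 for Sqle, 1.60 and 0.47 for Hmgcs1, 1.91 and 0.30 for Idi1 and 2.49 and 0.64 for Fabp5. The sterol list had medians of 1.31 and 0.40, and all 158 genes that rose had a median of 0.22 in the latter.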

How the data were processed

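RNA of 48 mouse livers was measured on Affymetrix arrays. The authors deposited log2 expression per probe set; per the submitters' processing notes, these values came from the RMA routine of Expression Console (Affymetrix); versions, build and scanner files were not used here. Of 35556 probe sets, 21789 carried 1 gene symbol in the platform annotation, 1621 several and 12146 were not listed; 21698 were matched by Entrez ID and 0 symbols changed. A gene was read from its probe set with the highest mean, and genes above the 40th percentile (log2 5.46) of the series were tested; 705 had several probe sets. Arrays were checked in pairs by the spread of their differences over variable probe sets relative to stable ones. This ratio was 1.49 for wild-type replicates 4 and 5 of control-diet sires, and 2.28 to 6.41 for pairs not averaged; pairs under 1.5, which include an ATF7+/+ pair, were averaged. Array sets A and B came from the first principal component of 5591 expressed probe sets with no listed gene.

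Limma 3.58.1 in R 4.3.3 was fitted over all 6 groups, with Benjamini-Hochberg adjustment over all 13542 genes and a threshold of 0.05, after tests on simulated data. Python 3.11.15 with pandas 2.3.3 and matplotlib 3.10.9 read promoters and drew plots. The genes named are the 12 largest rises and 12 largest falls, up to 4 passing members of each list, all members of the sterol, SREBP, fatty acid, clock and ATF7 lists, the 5 smallest p of the diet comparisons and abundant cell type markers; a few, such as Ces2g, were added after values were seen. Members and lists were chosen with earlier results of these data known. Alternatives changed the filter, normalization, probe set rule, averaging, variance model, groups fitted, blocks and covariates, array set and each single sample.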

Additional observations from a re-analysis of the deposited data

Results flagged for a closer look

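Part of the named genes were chosen by control-diet values or by the test of the difference between diets. Their share here is therefore partly fixed by that choice, and over all genes 0.635% passed. For 37 of 155 named genes the genotype difference under control-diet sires minus that under low-protein sires was past the threshold (limma, adjusted p under 0.05). In the sterol pathway this difference, in log2, was 2.68 for Sqle, 2.35 for Idi1, 2.30 for Cyp51, 2.16 for Hmgcs1, 2.05 for Msmo1, 2.04 for Nsdhl, 2.02 for Lss, 1.90 for Fdps, 1.84 for Mvd, 1.63 for Dhcr7, 1.5 for Pmvk, 1.40 for Hsd17b7, 1.25 for Mvk, 1.11 for Tm7sf2, 1.04 for Fdft1, 0.61 for Sc5d and 0.56 for Ebp. Among their regulators it was 0.73 for Srebf2 and 0.62 for Scap. In the lipogenic list it was 2.17 for Acss2, 2.0 for Acacb, 1.67 for Acly, 0.90 for Elovl5 and 0.39 for Scd1. Of the other rises, Fabp5 and Chrna4 both stood at 2.97, Rdh11 at 2.11, Aqp8 at 1.89, Rps23rg1 at 1.65, Mest at 1.23, Ces2e at 1.03, Slc23a1 and Acta2 both at 0.93, Ces2g at 0.89 and Sesn1 at 0.42. Of the falls, Slc35d1 and Fmo5 both stood at -0.69.

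A sample stood far from the others of its group (Dixon's criterion) in 25 cases among 312 groups of values tested, where chance gives about 1 in 20. Wild-type replicate 8 was low for Aox1 at 7.77, Sc5d at 10.68, Abcg8 at 8.65 and Atf7ip at 8.65. Wild-type replicate 2 was low for Acss2 at 8.09, Thrsp at 6.50 and Mapk14 at 8.73. Wild-type replicate 3 was high for the erythroid genes Alas2 at 9.07 and Slc4a1 at 8.62, high for the B cell gene Cd79b at 7.36 and low for Hamp at 10.94, and replicate 1 was low on the second probe set of Atf7 at 8.32. ATF7+/- replicate 5 was low for Insig1 at 11.53, Mvd at 7.93, Srebf1 at 9.07, Thrsp at 8.70 and, among kinases, Mapk14 at 8.70. ATF7+/- replicate 7 was high for Alas2 at 9.05 and Cd79b at 8.08 and had Tubb2a at 7.58. ATF7+/- replicate 1 stood apart for Sesn1 at 8.34 and Slc25a1 at 11.32, replicate 2 for Extl1 at 7.09, and replicate 3 for Dmxl2 at 7.12 and Nr1d2 at 8.38.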

How the results depend on the processing

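The 224 calls of the genotype comparison became 69 with only these groups fitted, 822 with array set as a block, 929 with set and Y-linked level, 898 on set A and 447 on set B. They ranged from 121 to 302 without 1 sample. A block on the replicate number left 37. The correlations of same-numbered samples ran from -0.38 to 0.49, and 0 of 8 matched their own number best. They were positive where both samples were of the same array set and negative otherwise. They therefore cannot show whether the numbers pair the animals. Taken as deviations from the means of group and array set, the correlations ran from -0.27 to 0.13. Pairing itself was not tested. The 0 calls under low-protein sires became 6 on set A and stayed at 0 without any 1 sample. The 86 calls of the difference between diets became 178 with array weights, 299 with the set block, 417 with set and Y-linked level, 280 on set A and 181 on set B, and 49 to 167 without 1 sample. The 0 calls against ATF7+/+ became 1 with the mean of probe sets, 3 with all 48 arrays, 13 with array weights, 10 with the set block, 6 with set and Y-linked level, 1262 on set A and 2 on set B, and 0 to 4 without 1 sample. Atf7 passed at -0.57 with the mean of probe sets, a value that averages its first and second probe sets. The first probe set by itself passed at -0.27 with the set block, with or without the Y-linked level. The fatty acid median moved to 1.01 on set A, and the sterol median stayed between 1.05 and 1.42 over 30 alternatives, with 12 (replicate block) to 18 members that rose; these recounts of members were chosen after seeing the data. Of 61 named genes that passed, 26 were lost with only these groups fitted, 36 with the replicate block, 19 on set B, 12 on set A, 11 with array weights, 10 with median centring and up to 11 without 1 sample. Fewer samples or more terms enter several of these fits; the cause of the other shifts was not tested. No named result turned its direction while past the threshold. The 15 samples limit the precision, and values near the filter of 5.46 may lie near background.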

Other observations

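Several lists with 0 calls had nearly all members on 1 side, as values with no test. Over all genes, 6514 of 13542 had a higher mean in ATF7+/- liver of control-diet sires. Of 33 oxidative phosphorylation subunits 28 had a higher mean in this comparison (median 0.12), and of 21 coagulation and complement genes 19 (median 0.12). Of 22 cytosolic ribosomal protein genes 2 had a higher mean (median -0.09). Cell cycle genes had medians of 0.38 under control-diet and -0.56 under low-protein sires, and 4 of 22 passed the test of that difference (limma, adjusted p under 0.05), against 0.635% of all genes.

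Hamp, the iron hormone hepcidin, was named after its values were seen. It read 10.94, 12.68 and 12.81 (lowest, median, highest log2) in wild-type and 6.03, 11.32 and 12.52 in ATF7+/- liver of control-diet sires. The difference was -1.85 ± 1.09 there (limma, adjusted p = 0.499) and 3.06 under low-protein sires, and the difference between the diets did not pass (adjusted p = 0.134).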
